A study of Mus musculus with 6 samples.

Results

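The 10 genes described here carry cystine into cells or make, reduce and break down glutathione. They were taken by symbol from the deposited gene tables, where each symbol named 1 of 55401 genes, and all 10 passed the filter on low counts that left 17194 genes for testing. Their levels were compared between kidneys of 2 groups of mice with 3 libraries each, all labelled as separate biological replicates. The WT/Sed group had the wild-type genotype and the Cdo1KKO/Sed group the genotype labelled KO, with Cdo1 as the targeted gene. Mice of both groups had been made diabetic with streptozotocin, a toxin of the insulin-producing beta cells, so no library shows a kidney without diabetes. The sources used here do not say how Cdo1 was altered and in which cells, give no strain, age or sex of the mice, and do not spell out Sed. The study compared the groups to learn which pathways tubular Cdo1 affects.

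Cystine is the oxidised dimer of cysteine, the amino acid that limits glutathione synthesis. Cells take it up through the exchanger xCT, a pair of the light chain Slc7a11 and the heavy chain Slc3a2. The proximal tubule recovers it from the filtrate through apical rBAT (Slc3a1) paired with the light chain Slc7a9 or, in its last segment, Slc7a13. Loss of Slc3a1 or Slc7a9 causes cystinuria. Glutathione is built by glutamate-cysteine ligase, with its catalytic subunit Gclc and its modifier subunit Gclm, and then by glutathione synthetase, Gss. Gsr returns oxidised glutathione to its reduced form. Ggt1 on the brush border cleaves glutathione outside the cell, and Chac1 cleaves it inside. Cdo1, the targeted gene, uses up cysteine in a competing route, towards taurine and sulfate.

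The stretches printed next lie before the starts of 4 of the genes and are shown because they hold short motifs of factors known to act on this pathway. They come from RefSeq promoter windows on GRCm38.p6, each with 250 bases before and 50 bases after a start, and 8 of the 10 genes matched a window. TGATGNAA was searched as the core of the element bound by ATF4 with C/EBP partners, TGACNNNGC as the core of the antioxidant response element bound by NRF2, and CAAAGTCCA as a form of the site of HNF4, a factor of tubule identity. Both strands were searched, and no match of 1 motif overlapped a match of another. Capitals mark the matches.
Slc7a11: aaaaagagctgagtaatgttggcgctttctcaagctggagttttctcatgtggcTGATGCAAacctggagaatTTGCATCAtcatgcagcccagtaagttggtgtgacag
Chac1: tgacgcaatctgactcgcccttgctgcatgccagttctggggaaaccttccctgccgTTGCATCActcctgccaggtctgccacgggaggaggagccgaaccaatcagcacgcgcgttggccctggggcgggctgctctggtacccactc
Gclm: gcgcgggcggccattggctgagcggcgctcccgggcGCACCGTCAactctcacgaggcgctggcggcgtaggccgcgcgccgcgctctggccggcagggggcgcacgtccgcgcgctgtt
Slc3a1: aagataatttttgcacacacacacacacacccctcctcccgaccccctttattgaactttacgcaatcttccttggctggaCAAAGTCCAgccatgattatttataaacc

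The Slc7a11 stretch is chr3:50443624-50443733 on the minus strand, and the Chac1 stretch is chr2:119350992-119351141 on the plus strand. Slc7a11 held TGATGCAA on the strand of the gene, 66 to 59 bases before the start, and again on the opposite strand, 47 to 40 bases before it, where it prints as TTGCATCA. Chac1 held the same 8 bases on the opposite strand, 193 to 186 bases before its start. TGATGNAA was present in 3.97% of all 32851 windows, and among the 8 genes with a window in those of Slc7a11 and Chac1 only. The Gclm stretch (chr3:122245387-122245506, plus strand) held TGACNNNGC on the opposite strand, which was present in 12.4% of all windows and also in 3 of the 4 windows of Ggt1. The Slc3a1 stretch (chr17:85028227-85028336, plus strand) held CAAAGTCCA, present in 0.475% of all windows. A match is a description of the letters, not evidence of binding, and a link between the motifs and the changes below was not tested.

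All 10 genes differed between the groups: 6 rose in Cdo1KKO/Sed and 4 fell. Rose and fell are used here for genes whose p, adjusted by the method of Benjamini and Hochberg over all 17194 genes tested with edgeR (quasi-likelihood), lay below 0.05. Of all genes tested, 37.4% changed, 18.9% upwards and 18.5% downwards. The genes that rose were those of xCT (Slc7a11, Slc3a2), both subunits of glutamate-cysteine ligase (Gclc, Gclm), the reductase Gsr and the intracellular glutathione-cleaving enzyme Chac1. The genes that fell were those of apical cystine uptake (Slc3a1, Slc7a9), Gss and Ggt1. The scaled counts (CPM, counts scaled to library size by TMM) of the groups did not overlap in any of the 10, against 50.3% of all genes tested. The 10 had a median of 0.27 on the log2 scale, with values far apart in both directions, and all genes tested had a median of 0.01. The genes were chosen with earlier results of these data known, so these counts describe them and do not test them as a set.

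The libraries held 28145261 to 43872779 counts. Cdo1 itself fell to 59.8% of its WT/Sed level, from 180.5 to 191 CPM over the WT/Sed libraries to 103 to 118 CPM. Its log2 fold change was -0.74, and 5.28% of the genes tested had the same or a lower one, Slc7a9 (-0.80) among them. How far the fall of Cdo1 was part of the fall of proximal tubule transcripts described below was not tested. The WT/Sed libraries were farther from each other than the Cdo1KKO/Sed libraries, with a chi-square per degree of freedom of 11.5 to 36.4 per pair against 3.39 to 7.24, and WT/Sed replicates 2 and 3 were the farthest apart. Scaling also matters here: with library size only, this median of all genes moved to 0.18 and the share of rises among changed genes from 50.5% to 76.6%. Changes are therefore given relative to the median gene. Markers of kidney tubule segments were present in all libraries. Of 8 hepatocyte markers, 1, Tat, had 0 counts in all 6 libraries, and 3, Tat included, were too low to be tested. Of the 5 tested, 3 fell and 0 rose. The 8 summed to 2234 to 2490 CPM in WT/Sed and 1266.5 to 1484 CPM in Cdo1KKO/Sed. Cyp2e1 made up most of both sums, with means of 2222 and 1300 CPM. In bulk kidney RNA, fewer cells of a type and less RNA per cell cannot be told apart.

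**Figure D1:**
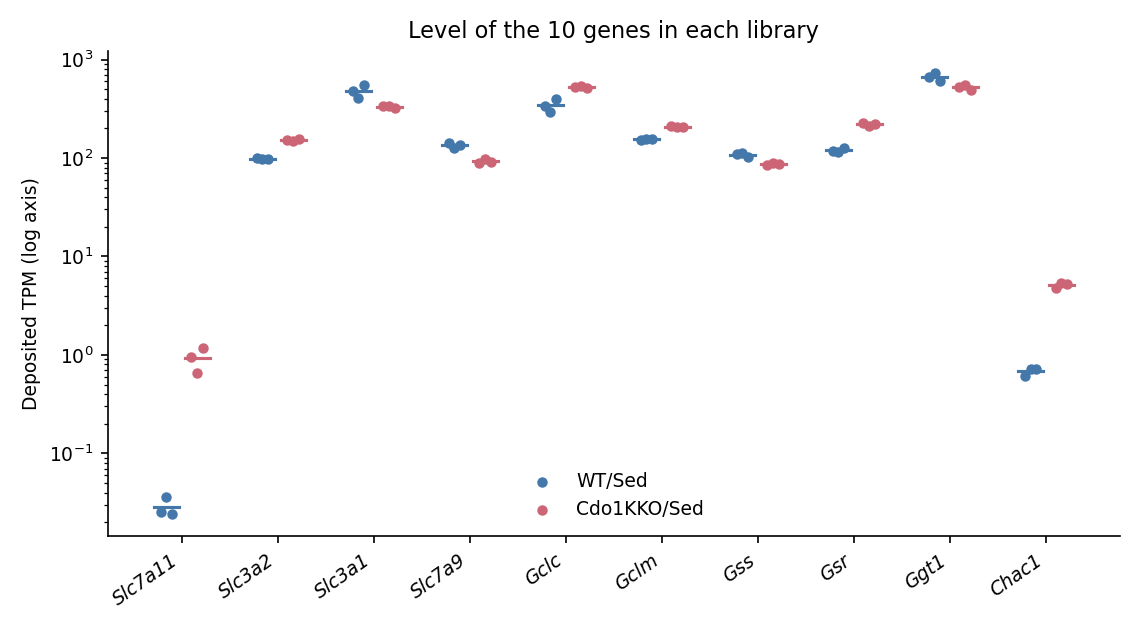
Deposited TPM (transcript abundance per length, log axis) of the 10 genes in each of the 6 libraries; points are libraries and bars are group means of 3 libraries. Slc7a11 stood at 0.0285 TPM on average in WT/Sed, against 0.929 in Cdo1KKO/Sed, and the groups did not overlap for any of the 10 genes.

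Levels can be compared between genes on the TPM scale, which is per length. In WT/Sed the order of mean TPM was Ggt1 (667 ± 66.5, SD, n = 3), Slc3a1 (480.2 ± 75.7), Gclc (344 ± 50.1), Gclm (155 ± 1.5), Slc7a9 (135 ± 8.16), Gsr (119.7 ± 5.65), Gss (108 ± 5.17) and Slc3a2 (98.7 ± 1.52). Chac1 (0.681 ± 0.0644) and Slc7a11 (0.0285 ± 0.00669) stood far below the rest. No 2 neighbours in this order overlapped over the 3 libraries. Ggt1 was 110th of all genes by mean TPM in WT/Sed and 154th in Cdo1KKO/Sed, and Slc3a1 went from 166th to 279th. Gclc moved the other way, from 256th to 152nd. In Cdo1KKO/Sed, Gclc (526 ± 16.8 TPM) and Ggt1 (523 ± 31.5 TPM) led the order and overlapped over the libraries. Slc3a1 followed at 330.5 ± 7.93 TPM and Gsr at 220.1 ± 7.54 TPM. Gsr thus stood above Gclm, at 208 ± 2.34 TPM, having been below it in WT/Sed. Slc3a2 followed at 152 ± 2.57 TPM, Slc7a9 at 92.5 ± 4.0 TPM and Gss at 86.7 ± 1.39 TPM. Chac1 (5.12 ± 0.289 TPM) and Slc7a11 (0.929 ± 0.261 TPM) were again the lowest.

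Slc7a11, the light chain of xCT that carries cystine in exchange for glutamate, was close to absent from diabetic WT/Sed kidney and rose in Cdo1KKO/Sed. Its counts were 6, 6 and 6 in the WT/Sed libraries and 160, 136 and 275 in the Cdo1KKO/Sed libraries. Scaled to library size these are 0.154, 0.225 and 0.146 CPM against 4.90, 3.42 and 5.995 CPM. Every Cdo1KKO/Sed library lay far above every WT/Sed library, and Cdo1KKO/Sed replicate 3 was the highest. The log2 fold change was 4.79 ± 0.33 (approximate SE; edgeR adjusted p = 1.29e-06), and 99.5% of the genes tested had the same or a lower fold change. Over the 6 fits that each left out 1 library it lay between 4.58 and 4.98. With only 6 counts in each WT/Sed library, the size of the fold rests on few reads, and on the log2(TPM + 1) scale, which compresses such low values, the difference was 0.90. Slc7a11 (ENSMUSG00000027737.10) spans chromosome 3, 49892526 to 50443614, on the minus strand of GRCm38. Its gene model of 551 kb overlaps 5 other annotated genes, 3 of them on the opposite strand, and the counting is not stated to use strand.

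Slc3a2 (CD98hc), the heavy chain that brings Slc7a11 and several other light chains to the membrane, rose far less. Its WT/Sed libraries held 156, 153 and 151 CPM and its Cdo1KKO/Sed libraries 199, 198 and 199 CPM. The libraries of each group were close to each other and the groups were apart. The log2 fold change was 0.37 ± 0.05 (edgeR adjusted p = 9.40e-05). With library size only it was 0.54, and 0.63 with the TPM values plus 0.1. Slc3a2 spans chromosome 19, 8706882 to 8723369, on the minus strand, with no overlapping gene in the annotation. The most abundant of its light chains were Slc7a7 and Slc7a8. These, which serve basolateral transport of cationic and neutral amino acids in tubule cells, made up 53.1% ± 2.53 and 45.2% ± 2.53 (SD, n = 3) of the summed TPM of Slc7a5, Slc7a6, Slc7a7, Slc7a8, Slc7a10 and Slc7a11 in WT/Sed. Slc7a11 made up 0.0151% ± 0.00450 in WT/Sed and 0.560% ± 0.164 in Cdo1KKO/Sed. Slc7a5, the light chain of the leucine exchanger LAT1, made up 0.309% ± 0.125 and 2.12% ± 0.23. The ratio of Slc7a11 to Slc3a2 TPM was 0.000289 ± 7.19e-05 in WT/Sed and 0.00608 ± 0.00162 in Cdo1KKO/Sed. The geometric mean was 20.9 times as high in Cdo1KKO/Sed, and the libraries of the groups lay apart. An exact 2-sided permutation test of this ratio gave p = 0.1 (with 3 libraries per group no lower p is possible), and 0.4 after adjustment over the 4 ratios tested.

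The genes of apical cystine uptake fell together. Slc3a1 (rBAT), the heavy chain, held 484, 408 and 547 CPM in WT/Sed and 279.6, 285 and 268 CPM in Cdo1KKO/Sed. WT/Sed replicate 2 was the lowest of its group and replicate 3 the highest, and all 3 lay above every Cdo1KKO/Sed library. Its log2 fold change was -0.79 ± 0.09 (edgeR adjusted p = 2.10e-04). Its light chain Slc7a9, which with Slc3a1 exchanges luminal cystine and dibasic amino acids for neutral ones, held 169, 152 and 157 CPM in WT/Sed and 88.1, 97.4 and 89.1 CPM in Cdo1KKO/Sed. The groups were apart by more than the spread within either, with a log2 fold change of -0.80 ± 0.06 (edgeR adjusted p = 2.58e-06). The Cdo1KKO/Sed levels were 57.8% and 57.4% of the WT/Sed levels for Slc3a1 and Slc7a9. On the log2(TPM + 0.1) scale the differences were -0.53 for Slc3a1 and -0.55 for Slc7a9. Slc7a9 spans chromosome 7, 35448796 to 35466036, with no overlapping gene, and Slc3a1 chromosome 17, 85028376 to 85064236. The Slc3a1 model overlaps Prepl on the opposite strand, so a part of its counts could belong to that gene.

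The ratios of Slc7a9 and of Slc7a13 to Slc3a1 overlapped between the groups. With 3 libraries per group the permutation test cannot go below p = 0.1, so it could show neither a difference nor a like ratio. The ratio of Slc7a9 to Slc3a1 TPM was 0.296, 0.316 and 0.244 in WT/Sed, against 0.267, 0.290 and 0.283 in Cdo1KKO/Sed. The groups overlapped, with a log2 difference of -0.02 (exact 2-sided permutation p = 0.9, 0.9 adjusted over 4 ratios), and its sign changed on leaving out WT/Sed replicates 1 or 2 or Cdo1KKO/Sed replicate 1. Slc7a13, the light chain that pairs with Slc3a1 in the last proximal segment, was the more abundant partner, at 1083 ± 112 TPM in WT/Sed and 912 ± 30.9 TPM in Cdo1KKO/Sed. It made up 88.8% ± 1.39 and 90.8% ± 0.290 of the summed TPM of Slc7a9 and Slc7a13. Slc7a13 fell too, by 0.50 on the log2 scale (SE 0.08, edgeR adjusted p = 6.03e-04). Its ratio to Slc3a1 overlapped between the groups, at 2.32 ± 0.614 in WT/Sed and 2.76 ± 0.0367 in Cdo1KKO/Sed (exact 2-sided permutation p = 0.4, 0.533 adjusted over 4 ratios). The WT/Sed spread came from replicate 2, at 2.98, and replicate 3, at 1.76, so the log2 difference of 0.28 became 0.48 without replicate 2 and 0.10 without replicate 3.

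Other transcripts of the proximal tubule fell in the same libraries. Of 8 markers of its first segment 7 fell, with a median log2 fold change of -0.54 and a summed level of 9386 to 9559 CPM in WT/Sed and 5819 to 6319 CPM in Cdo1KKO/Sed. Of 8 markers of its later segments, Slc7a13 among them, 8 fell, with a median of -0.70 and a summed level of 4465 to 5544 CPM against 2983 to 3362 CPM. None of these 16 markers was at 0 in either group. The part of the loss of proximal tubule transcripts in the falls of Slc3a1, Slc7a9 and Ggt1 was not tested.

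**Figure D2:**
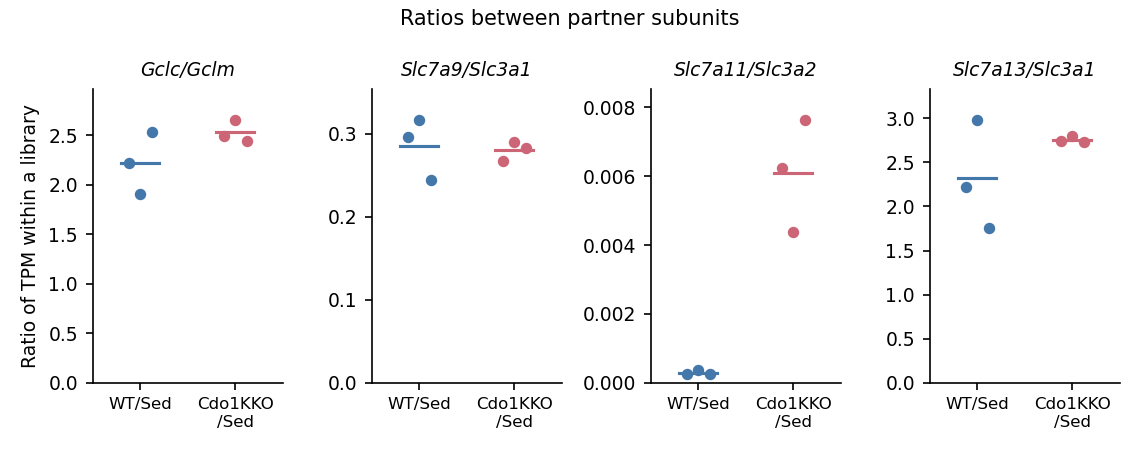
Ratio of deposited TPM within each library for 4 pairs of partner subunits; points are the 3 libraries of a group, bars are means, and each vertical axis starts at 0. The groups are apart for Slc7a11 over Slc3a2 (0.000289 against 0.00608 on average) and overlap for the other pairs.

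Both subunits of glutamate-cysteine ligase, the enzyme that sets the rate of glutathione synthesis, rose. The catalytic subunit Gclc held 563, 498 and 649 CPM in WT/Sed and 723, 767 and 704 CPM in Cdo1KKO/Sed. WT/Sed replicate 3 came close to the Cdo1KKO/Sed libraries, without reaching them. The log2 fold change was 0.36 ± 0.09 (edgeR adjusted p = 0.00991). It was 0.27 without WT/Sed replicate 2 and 0.46 without WT/Sed replicate 3, and the highest adjusted p over all alternatives was 0.0485. With the TPM values plus 0.1 the difference was 0.62. The modifier subunit Gclm, which raises the affinity of Gclc for glutamate, held 424, 436 and 427 CPM in WT/Sed and 484, 484 and 482 CPM in Cdo1KKO/Sed. Its log2 fold change was 0.17 ± 0.05 (edgeR adjusted p = 0.0123), the smallest of the 10 changes with TMM scaling but not on the log2(TPM + 0.1) scale, where those of Gss and Ggt1 were smaller. Gclm was no longer called when WT/Sed replicate 1 (edgeR adjusted p = 0.0725), Cdo1KKO/Sed replicate 1 (0.0645) or Cdo1KKO/Sed replicate 3 (0.0518) was left out. Its log2 fold change became 0.42 on the log2(TPM + 0.1) scale and 0.34 with library size only.

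The ratio of Gclc to Gclm TPM overlapped between the groups. It was 2.22, 1.91 and 2.54 in WT/Sed, against 2.50, 2.65 and 2.44 in Cdo1KKO/Sed (exact 2-sided permutation p = 0.3, 0.533 adjusted over 4 ratios). The low ratio of WT/Sed replicate 2 came with the lowest Gclc of the 6 libraries, and its log2 difference of 0.20 became 0.09 without that library and 0.30 without WT/Sed replicate 3. Gclc spans chromosome 9, 77754535 to 77794485, with no overlapping gene in the annotation, and Gclm chromosome 3, 122245557 to 122270732, where it overlaps 1 gene on the opposite strand and 1 pseudogene on its own.

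The enzyme of the next step moved the other way. Gss, which adds glycine to gamma-glutamylcysteine, held 287, 296 and 263 CPM in WT/Sed and 186, 195 and 188 CPM in Cdo1KKO/Sed. Its log2 fold change was -0.57 ± 0.06 (edgeR adjusted p = 1.80e-05), so that its level was 67.3% of that in WT/Sed. On the log2(TPM + 0.1) scale the difference was -0.32. Gss lies on chromosome 2, 155563181 to 155592810, and 3 genes overlap it on the opposite strand, among them the acetyl-CoA synthetase Acss2. Gsr, which spends NADPH to reduce glutathione disulfide, rose from 143, 142 and 151 CPM to 230.3, 219 and 222 CPM. All 3 Cdo1KKO/Sed libraries lay above all WT/Sed libraries, with a log2 fold change of 0.63 ± 0.05 (edgeR adjusted p = 4.26e-06). Leaving out each library in turn kept it between 0.61 and 0.65. Gsr spans chromosome 8, 33652523 to 33698163, and overlaps a small nucleolar RNA gene.

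The 2 glutathione-cleaving genes among the 10, Ggt1 and Chac1, moved in opposite directions. Ggt1, the brush border enzyme that removes the gamma-glutamyl group from filtered and secreted glutathione, held 1002, 1117 and 890.4 CPM in WT/Sed and 659, 706 and 612 CPM in Cdo1KKO/Sed. In WT/Sed it was highest in replicate 2 and lowest in replicate 3, the reverse of Slc3a1 and Gclc. Its log2 fold change was -0.61 ± 0.08 (edgeR adjusted p = 3.62e-04), and -0.35 on the log2(TPM + 0.1) scale. Ggt1 made up 98.0% ± 0.262 of the summed TPM of Ggt1, Ggt5, Ggt6 and Ggt7 in WT/Sed and 97.9% ± 0.0463 in Cdo1KKO/Sed. It spans chromosome 10, 75561604 to 75586200, on the plus strand, with no overlapping gene in the annotation.

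Chac1, a gamma-glutamylcyclotransferase that degrades reduced glutathione in the cytosol and is induced through ATF4, rose from a low level. Its counts were 17, 14 and 21 in WT/Sed, against 94, 130 and 144 in Cdo1KKO/Sed, or 0.437, 0.525 and 0.511 CPM against 2.88, 3.27 and 3.14 CPM. The lowest Cdo1KKO/Sed library was well above the highest WT/Sed library. The log2 fold change was 2.66 ± 0.24 (edgeR adjusted p = 9.65e-06), and 98.4% of genes tested had the same or a lower fold change. The gene is short, spanning chromosome 2 from 119351229 to 119354381 in 3 exons. Its homologue Chac2, which acts on glutathione more slowly, fell from 53.1 ± 0.814 to 32.05 ± 0.782 CPM (log2 fold change -0.73 ± 0.06, edgeR adjusted p = 3.09e-06). Chac2 still held most of the summed TPM of the gamma-glutamylcyclotransferase genes Chac1, Chac2 and Ggct. Of this sum, Chac1 made up 0.597% ± 0.0570 in WT/Sed and 5.85% ± 0.237 in Cdo1KKO/Sed, and Chac2 80.5% ± 3.03 and 75.5% ± 0.545.

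Markers of other cells and segments also moved in the libraries in which Slc7a11 and Chac1 were higher. Of 8 genes of injured proximal tubule 7 rose. Over the WT/Sed libraries the 8 summed to 843 to 1092 CPM, against 8234 to 10043 CPM over the Cdo1KKO/Sed libraries. Spp1 made up most of both sums, with a WT/Sed mean of 934 CPM and a Cdo1KKO/Sed mean of 7242 CPM. The WT/Sed means of the other genes ran from 0.411 (Krt20) to 18.7 CPM (Vim). Their Cdo1KKO/Sed means ran from 7.95 (Cd44) to 1169 CPM (Lcn2). Of 7 macrophage markers 5 rose and 1 fell, and their summed level was 57.0 to 89.1 CPM in WT/Sed and 108 to 115 CPM in Cdo1KKO/Sed. Of 6 neutrophil markers tested 5 rose, from a summed level of 1.65 to 3.14 CPM to 14.7 to 18.1 CPM. All 6 red blood cell markers rose, from 43.1 to 73.7 CPM to 446 to 468 CPM. Of 5 markers of the thick ascending limb 4 rose and 1 fell, with a summed level of 3109 to 3964 CPM in WT/Sed and 5209 to 5410 CPM in Cdo1KKO/Sed. Of 6 collecting duct markers 2 fell and 1 rose, and their summed level was 534 to 539.97 CPM in WT/Sed and 307 to 316 CPM in Cdo1KKO/Sed. The 2 that fell were Aqp2 and Aqp3, and the 1 that rose, Slc4a1, is also counted among the red blood cell markers. No marker of these lists was at 0 over a whole group. Their part in the rises of Slc7a11, Slc3a2 and Chac1 was not tested.

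**Figure D3:**
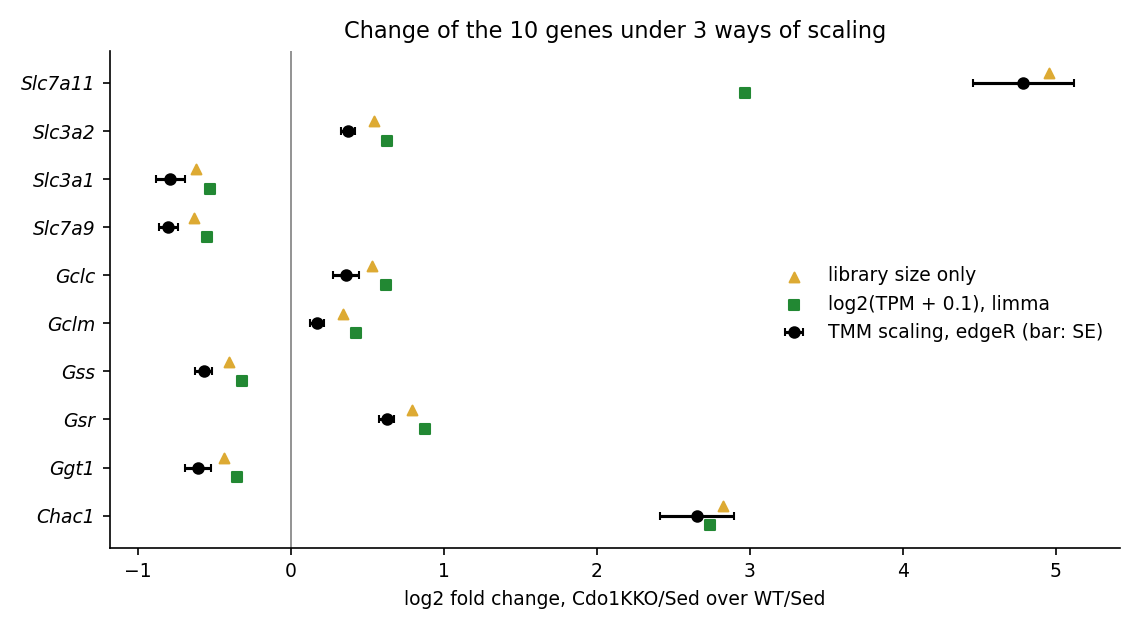
Log2 fold change of each gene, Cdo1KKO/Sed over WT/Sed, with TMM scaling (black, with the approximate SE), with library size only (triangles) and on log2(TPM + 0.1) values (squares); n = 3 libraries per group. The other ways of scaling shift the points upwards, except for Slc7a11 on the TPM scale (2.97 against 4.79), and move none of the 10 across 0.

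The genes around these 10 were followed in 7 lists. Of 11 other carriers of cystine, cysteine and related amino acids that were tested, 4 rose and 4 fell (median log2 fold change 0.09). Slc7a5 rose by 2.27 ± 0.27. Slc7a7 (-0.76 ± 0.07), the cysteine and glutamate transporter Slc1a1 (-0.45 ± 0.06) and Slc7a13 fell, all with edgeR adjusted p values from 1.51e-05 to 6.03e-04. In WT/Sed, Slc7a5 stood at 0.597 TPM, against 101.4 TPM for Slc7a7 and 1083 TPM for Slc7a13. The others that rose, named after their values were seen, were the neutral amino acid carriers Slc1a5 (0.51 ± 0.08) and Slc1a4 (0.24 ± 0.06) and the lysosomal cysteine importer Mfsd12 (0.52 ± 0.13). Slc7a8, named likewise, fell by 0.22 on the log2 scale with TMM scaling, while its mean TPM was higher in Cdo1KKO/Sed, at 87.8 against 85.9. Slc7a10 had 0 counts in all libraries.

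Enzymes of glutathione breakdown other than Ggt1 and Chac1 fell in 6 of 10 cases and rose in 0 (median -0.34). With library size only 4 fell and 0 rose, and on the TPM scale 4 fell and 1 rose. The aminopeptidase Anpep, which follows Ggt1 on the brush border, fell by 0.67 on the log2 scale and Ggt6 by 0.56. Chac2 is described above, and Lap3, a cytosolic leucine aminopeptidase, fell by 0.32, a call lost on the TPM scale and with library size only. Of 8 genes of glutathione export and mitochondrial import, 6 fell and 1 rose (median -0.33). The mitochondrial carriers Slc25a10 (-0.90 ± 0.08), Slc25a11 (-0.56 ± 0.07) and Slc25a39 (-0.47 ± 0.08), the last a glutathione importer, fell, and the glutathione conjugate exporter Abcc1 rose by 0.48 ± 0.07. On the TPM scale 3 genes of this list fell and 2 rose.

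The list of glutathione-dependent reduction and glyoxalases also holds transferases and other enzymes that do not use glutathione as reductant. Of its 13 genes tested, 7 fell and 2 rose (median -0.21). With library size only 4 fell and 3 rose, and with the TPM values 3 fell and 4 rose, so the balance of this list depended on the scaling. The microsomal transferase Mgst1 rose from 75.7 to 233 CPM (log2 fold change 1.62 ± 0.06) and the glutaredoxin Glrx by 0.81 ± 0.06. Secreted Gpx3, made by the proximal tubule, fell from 21753 to 15476 CPM (-0.49 ± 0.04), and Gpx1 fell by 0.53. Genes of cysteine supply and use, Cdo1 included, fell in 10 of 11 cases and rose in 0 (median -0.70). Cth, which makes cysteine from cystathionine, fell by 0.75, Csad by 0.72 and Ahcy by 0.70 on the log2 scale.

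In the lists of NRF2 and ATF4 genes, more members rose than fell, and 6 and 5 members were not called. Of 17 NRF2 genes other than the 10, 10 rose and 1, the malic enzyme Me1, fell (median 0.42). Pgd (0.97 ± 0.05) and G6pdx (0.87 ± 0.06), which produce the NADPH that Gsr spends, Srxn1 (1.09 ± 0.08) and the ferritin subunit Fth1 (0.67 ± 0.04) had the smallest p. Of 17 ATF4 genes other than the 10, 11 rose and 1, the serine hydroxymethyltransferase Shmt2, fell (median 0.51). Atf4 itself rose by 1.08 ± 0.06, asparagine synthetase Asns by 1.68 ± 0.11, Ddit3 by 1.40 ± 0.11 and the proline synthesis enzyme Aldh18a1 by 1.73 ± 0.16. Shmt2, like Me1 named after its values were seen, was not called with upper-quartile scaling, on the TPM scale or with library size only. Its call also ended when WT/Sed replicate 1 or any of the Cdo1KKO/Sed libraries was left out. Of all genes tested, 18.9% rose and 18.5% fell, and none of these lists was tested as a set.

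**Figure D4:**
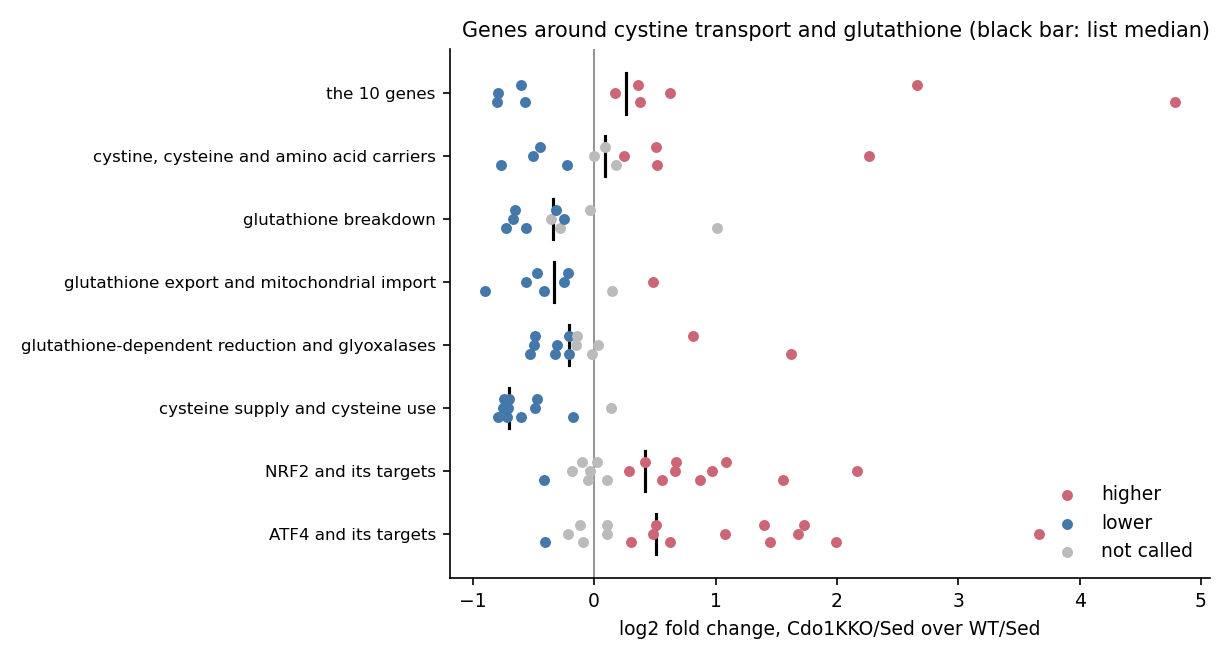
Log2 fold change, Cdo1KKO/Sed over WT/Sed, of each tested gene of the 10 and of the 7 lists around them; red points rose, blue points fell, grey points were not called, and black bars are list medians. The list medians run from -0.70 for cysteine supply and use to 0.51 for ATF4 and its targets.

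The genes most like 3 of the 10 over the 6 libraries were found among 13826 genes with a mean of at least 1 CPM, by Pearson r of log2 CPM. Nearest to Slc7a11 were Trim56, Slc25a24 and Ifih1, a sensor of double-stranded RNA. Nearest to Slc7a9 were Tmem106a, Mlycd and Mterf4, and nearest to Ggt1 were Ndufb7, Pm20d1 and Dglucy. The values of r were all above 0.99, as they were for 223 genes with Slc7a11 and 124 with Ggt1. The libraries fall into 2 groups, so such an r describes mainly the step between them.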

How the data were processed

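Kidney poly(A) RNA of 6 libraries, 3 per group, was used. The authors deposited whole-number counts per gene and, for the same genes, TPM values that sum to 1000000 in each library. Per the submitters' processing notes, fastp 0.23.4 and the builds GRCm38 and mm10 were used. For the aligner, counter, annotation and strandedness: not given in the sources used here. All value columns were matched to libraries. Positions came from GENCODE M21 (GRCm38), where all 10 identifiers matched with their version.

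Counts were tested in R 4.3.3 with edgeR 4.0.16: filterByExpr, TMM, robust quasi-likelihood F test with group as the only term, and Benjamini-Hochberg adjustment over 17194 genes. The SE is the absolute log2 fold change divided by the square root of F. On simulated counts, 72 of 100 genes changed by 1 on the log2 scale were recovered, and 90 of 100 changed by 2. The simulation changed only 200 of the 17194 genes, equally in both directions, against 37.4% in the data. These rates therefore need not hold for the data. Ratios were tested by exact permutation. Alternatives used other scalings and filters, DESeq2 1.42.0, limma 3.58.1 (voom, and log2 TPM plus 1 or 0.1), a replicate block and each library left out. The 10 genes and the lists were chosen with earlier results of these data known. Named genes were the 10, Cdo1, the 4 smallest p of each list and the 3 most like 4 of the 10; those most like Chac1 are not reported here. Named outside that rule were partners or relatives of Slc3a2, Ggt1 and Chac1, overlapping genes, and members of counts of 5 or fewer. Some marker genes were also named, to show what a summed level holds. The edgeR p-values set a group difference against the spread between these libraries, estimated with information shared over genes. The permutation p-values compare the observed split of the 6 libraries with all possible splits. Figures used matplotlib 3.10.9 in Python 3.11.15.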

Additional observations from a re-analysis of the deposited data

How the results depend on the processing

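Each of the 10 genes was refitted under 16 alternatives. Of the 160 values, 157 kept direction and call, 3 lost the call (all of Gclm, with replicate 1 of WT/Sed or replicate 1 or 3 of Cdo1KKO/Sed left out) and 0 changed direction. Leaving out 1 library gave 5 to 6 genes higher and 4 lower, and 4682 to 7320 genes changed in all. With library size only 5513 genes rose and 1685 fell, with log2(TPM + 1) 6784 and 1246, and with log2(TPM + 0.1) 6660 and 1224; these alternatives do not correct for the different composition of the groups, and they moved the median of all genes to 0.18, 0.19 and 0.25. The log2 difference of the ratio of Slc7a9 to Slc3a1 ran from -0.13 to 0.06 on leaving out 1 library, and the values with the other sign were 0.0107 without WT/Sed replicate 1, 0.0566 without WT/Sed replicate 2 and 0.0126 without Cdo1KKO/Sed replicate 1; the cause was not tested. Same-numbered libraries did not visibly deviate together (correlations -0.0022 to 0.0125, against -0.0314 to 0.0276 for libraries of different numbers). With 3 libraries per group this cannot exclude a weak pairing by number. With the replicate block 6146 genes changed, 6 and 4 of the 10 genes rose and fell, and no call among them changed. Slc7a11 at 6 counts and Chac1 at 14 to 21 counts per WT/Sed library limit the precision of their folds.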
